A study of Mus musculus with 6 samples.

Results

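RM1 cells are a mouse model of prostate cancer. RM1536 was derived from them by labelling with eCFP, a fluorescent protein, and luc2, a luciferase, and is a pool of clones 5, 3 and 6. The comparison described here sets RM1536 cells recovered from a mouse, from bone and from lung taken as 1 group, against RM1536 in culture, so that differences shared by both sites can be read. It uses 4 of the 6 libraries, which were chosen by their labels: bone, lung, RM1536 a and RM1536 b. The other 2 libraries are unlabelled RM1 cultures (a and b), the line RM1536 was made from, and their values are given beside the others. The strain label of every library is C57BL/6, and every library is labelled as prostate cancer.

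The recovered cells were taken on day 16 after RM1536 cells stained with the membrane dye PKH26 had been injected into the heart. Cells that no longer carried the dye, the labels' mark of proliferation, were used. Bone, from the femur, and lung are 1 library each from 1 mouse, so no value here covers the spread between animals. Per the labels, sorted cells were grown again in DMEM with 5% FBS to 85% confluency of a T75 flask, so both recovered libraries are of cells that had been back in culture. A difference from RM1536 can have arisen in the animal, in the second culture or by the outgrowth of some cells of the pool, and these cannot be told apart. Whether a and b were separate cultures is not labelled. In bulk RNA, fewer cells that express a gene and less RNA per cell cannot be told apart either.

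Cells that spread through the blood must survive the loss of attachment, leave the vessels, and grow among the stromal and immune cells of a new tissue. Prostate cancer is known for growth in bone, and lung is a common second site. Genes often followed in such cells include the antiviral genes stimulated by interferon, which bear on recognition by immune cells, cell cycle genes, stress and growth factor response genes of the AP-1 family, and genes for matrix proteins, proteases and adhesion receptors.

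Libraries held between 22763835 and 30303566 counts. Of 10 markers set for prostate cells, 9 were in the table. Hoxb13, Krt5 and Foxa1 were at 0 reads in every library, while the luminal keratin gene Krt8 stood at 978 to 2353 CPM (reads scaled per library size and TMM factor). The 9 leukocyte markers in the table summed to 18 and 18.6 CPM in bone and lung against 18.4 and 19.6 in RM1536. Cd14 held 81.6% and 80.5% of the sum at the sites and 98.5% and 97.0% in RM1536. The other 8 summed to 3.32 CPM in bone and 3.62 in lung against 0.279 and 0.577 in RM1536, most of it Lyz2 at the sites, while Ptprc was at 0 in bone and lung. Stroma markers summed to 86.1 and 77.7 CPM in RM1536, 36.6 for bone and 57.7 for lung. Bone cell markers summed to 2.91 and 1.28 in RM1536 against 7.47 and 14.2 at the sites, most of it Ctsk. Lung epithelium markers summed to 0.836 to 1.91 CPM over all libraries. Erythroid and megakaryocyte markers summed to 0.537 to 1.40.

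No gene passed the threshold with both sites as 1 group. The edgeR quasi-likelihood test with Benjamini-Hochberg adjustment called 0 of 13182 genes (0%) at an adjusted p under 0.05, and the smallest adjusted p was 0.102. An unadjusted p under 0.05 was reached by 1417 genes (10.7%). The spread is that between 2 libraries in each of 3 groups, with 3 residual degrees of freedom, and a gene that differs between bone and lung gains spread. DESeq2, on the same 3 groups, called 344 genes, of which 212 were higher and 132 lower. limma-voom called 0. An exact two-sided permutation test of 2 libraries against 2 cannot go below p = 0.333. All genes are therefore described by their values, as higher or lower and not as changed.

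A count without a model gave the shared differences. Among 9780 genes with a mean of at least 5 CPM over the 4 libraries, 79 (0.808%) were 2-fold or more higher in all 4 pairs of a recovered and an RM1536 library. In the other direction 34 genes (0.348%) were 2-fold or more lower in all 4 pairs. The median log2 difference from the RM1536 mean was 2.1 in bone and 1.97 in lung for the 79, and -1.93 and -1.74 for the 34. The sites were within 1.5-fold of each other in 40 of the 79 and 19 of the 34 genes, and more than 2-fold apart in 19 and 11. Adjusted p ran from 0.188 to 0.465 and from 0.188 to 0.443, and DESeq2 called 70 and 29 of them. Without RM1536 a the counts were 356 and 197, since each gene then has fewer pairs to pass. Without RM1536 b they were 119 and 78, without bone 309 and 311, and without lung 212 and 177.

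**Figure D1:**
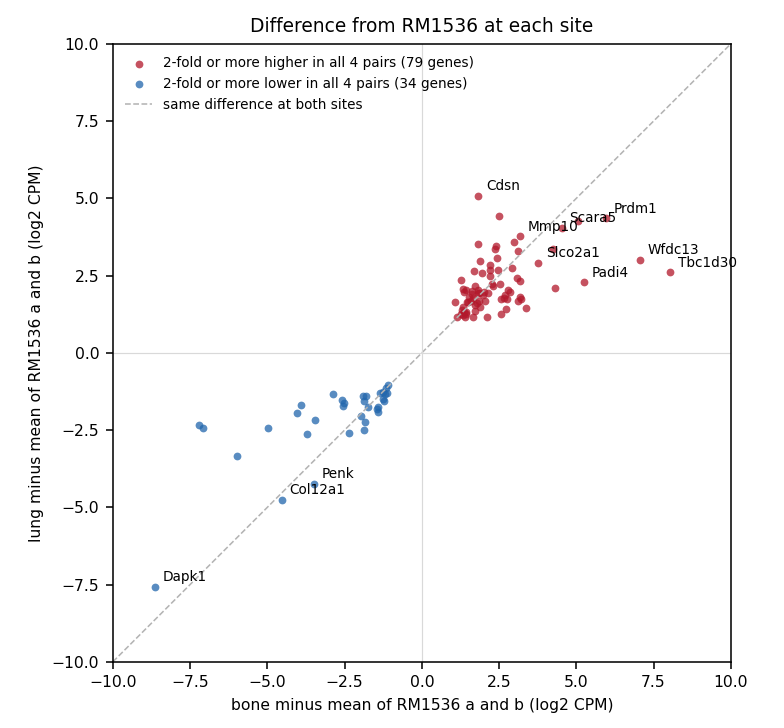
Difference from the mean of RM1536 a and b in bone (horizontal axis, log2 CPM) and in lung (vertical axis) for the 79 genes that were 2-fold or more higher and the 34 that were 2-fold or more lower in all 4 pairs. Both axes use the same RM1536 libraries, so the points' agreement in sign is set by the choice of genes; Tbc1d30, Wfdc13 and Padi4 lie further from 0 in bone, and Cdsn in lung.

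The 12 genes first by unadjusted p among those 79 include a pair of regulators. Trib1, an adaptor for the COP1 ubiquitin ligase, stood at 39.4 and 35.5 CPM in RM1536, 154 for bone and 119 for lung, and at 89.1 and 83.5 in RM1. The recovered libraries lay above all 4 cultures, and the log2 fold change was 1.87 with an SE of 0.20 (n = 2 and 2; adjusted p = 0.188). Prdm1, which codes for the transcriptional repressor Blimp-1, stood at 1.48 and 0.801 CPM in RM1536, 69.3 for bone and 22.6 for lung, and at 0.334 and 0.0717 in RM1. It was the furthest from RM1536 of the 12, at 5.34 ± 0.78 (adjusted p = 0.204), and was near 0 in both RM1 libraries.

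Membrane transport and scavenger receptor genes were among the 12. Slco2a1, a prostaglandin transporter gene, stood at 4.55 and 3.21 CPM in RM1536, 52.1 in bone and 28.6 in lung, with RM1 at 12.6 and 9.71 (log2 fold change 3.38 ± 0.40, adjusted p = 0.188). Scara5, a scavenger receptor that binds ferritin, stood at 4.99 and 2.34 CPM in RM1536 against 79.3 in bone and 56.6 in lung (4.22 ± 0.57, adjusted p = 0.204). Its relative Scara3 stood at 7.78 and 5.64 CPM against 49.9 and 44.4 (2.81 ± 0.36, adjusted p = 0.188). For both scavenger receptor genes RM1 was as low as RM1536 or lower, at 1.61 and 3.94 CPM for Scara5 and 1.71 and 0.896 for Scara3.

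Several others of the 12 were also high in RM1. Lmo7, a LIM domain protein of cell junctions, stood at 24.4 and 21.2 CPM in RM1536, 66.3 in bone and 79.9 in lung, against 125 and 106 in RM1. Kank1, a regulator of actin assembly, stood at 8.45 and 6.54 CPM in RM1536, 20.9 in bone and 23.3 in lung, against 43.1 and 41.4 in RM1. Etl4 followed the same order, with 7.98 and 6.54 CPM in RM1536, 24.9 and 22.2 in bone and lung, and 47.2 and 49.0 in RM1. For Lmo7, Kank1 and Etl4 the recovered level thus lay between RM1536 and RM1, with log2 fold changes against RM1536 of 1.68 ± 0.20, 1.56 ± 0.23 and 1.70 ± 0.22. Pdlim4, a PDZ and LIM domain protein of actin filaments, had another order: 3.07 and 4.04 CPM in RM1536, 17.5 in bone and 15.8 in lung, with RM1 lowest at 0.602 and 0.717. Epb41l4b, a FERM domain protein, stood at 2.63 and 2.53 CPM in RM1536 and at 12.4 and 12.3 at the sites, and both pairs differed little within themselves.

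The last of the 12 code for enzymes or related proteins. Ddah2, of the dimethylarginine dimethylaminohydrolase family, stood at 4.47 and 4.81 CPM in RM1536, 21.7 in bone and 26.0 in lung (2.36 ± 0.28, adjusted p = 0.188). B4galnt1, the synthase of the gangliosides GM2 and GD2, stood at 26.0 and 25.1 CPM against 67.9 and 56.7 (1.29 ± 0.19, adjusted p = 0.204). All 12 were called by DESeq2 and in the edgeR fit without a low-count filter, and by no other alternative.

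**Figure D2:**
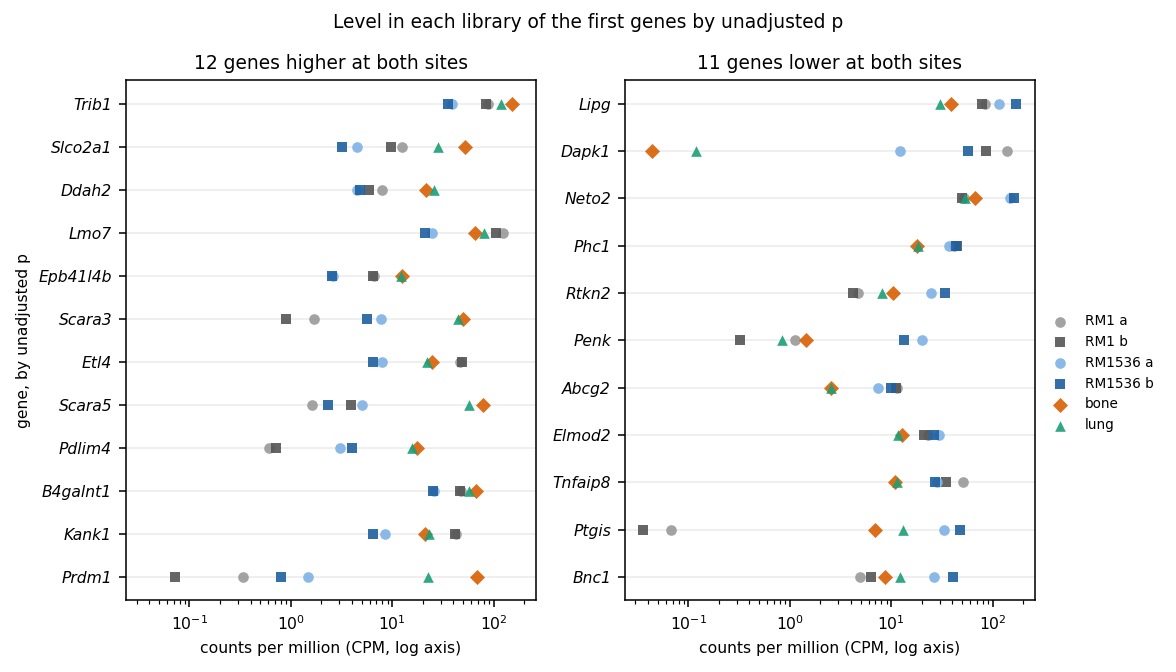
Level of the 12 higher genes first by unadjusted p (left) and of 11 of the 12 lower genes (right), in CPM on a log axis; each symbol is 1 library. Bone and lung lie on the same side of both RM1536 libraries for each gene, as the choice requires, while RM1 lies anywhere: beyond them for Lmo7 and Ptgis, between them and RM1536 for Trib1, and on the far side of RM1536 for Scara3.

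Among the 34 lower genes, the 12 first by unadjusted p were of mixed function. Lipg, which codes for endothelial lipase, stood at 116 and 170.5 CPM in RM1536, 39.0 in bone and 30 in lung, with RM1 at 83.7 and 79.2. It was lower than in all 4 cultures, at -2.05 ± 0.26 (adjusted p = 0.188). Abcg2, a drug efflux transporter gene, stood at 7.38 and 9.91 CPM in RM1536 and at 2.53 and 2.55 at the sites, also below RM1 at 11.5 and 11.1. Phc1, a Polycomb group gene, stood at 37.3 and 43.2 CPM in RM1536, 18.2 for bone and 18.4 for lung, and at 41.8 and 44.8 in RM1. Tnfaip8, induced by tumour necrosis factor, stood at 28 and 27.3 CPM in RM1536 and at 10.8 and 11.3 at the sites, and Elmod2 at 29.7 and 26.7 against 12.8 and 11.5. For these 4 genes both sites were nearly equal, and log2 fold changes were -1.76 ± 0.30, -1.14 ± 0.19, -1.32 ± 0.25 and -1.22 ± 0.21.

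Others of the 12 were higher in RM1536 than in RM1. Ptgis, which codes for prostacyclin synthase, had 33.2 and 47.8 CPM in RM1536, 6.86 in bone and 12.9 in lung, with RM1 at 0.0669 and 0.0358 (-2.03 ± 0.38, adjusted p = 0.271). Penk, the precursor of enkephalins, had 19.9 and 13.3 CPM in RM1536, 1.44 in bone and 0.836 in lung, with RM1 at 1.14 and 0.322 (-3.87 ± 0.65, adjusted p = 0.218). The recovered level of Penk was thus near that of RM1, while that of Ptgis lay well above it. Rtkn2, Neto2 and Bnc1 shared that order, and stood at 10.5, 67.1 and 8.73 CPM in bone and 8.12, 53.2 and 12.3 in lung. Their lower RM1536 library had 24.8, 150.0 and 26.2 CPM.

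Some genes were at or near 0 reads in both recovered libraries. With thresholds set after the values were seen, 6 genes had at most 3 reads in bone and in lung and at least 50 in each RM1536 library: Ripk3, Dapk1, Fbn2, Pknox2, Dlk1 and Aspn. Ripk3, the kinase that triggers necroptosis, had the smallest p of all genes. RM1536 held 118 and 163 of its reads, bone 0 and lung 1, while RM1 held 2132 and 2810. Its ratio of recovered to RM1536 was 0.00417 (exact 95% counting interval 0.000105 to 0.0234), with an adjusted p of 0.102. Dapk1, a kinase linked to cell death, had 305 and 1777 reads in RM1536, 1 in bone and 3 in lung, with RM1 at 4177 and 2432, a ratio of 0.00225 (0.000613 to 0.00577; adjusted p = 0.188). Both genes were thus highest in RM1, lower in RM1536 and nearly at 0 at both sites.

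Of the other 4, Fbn2, which codes for the microfibril protein fibrillin 2, had 82 and 207 reads in RM1536 and 0 at both sites. Against a limit of 3 counts over the recovered group it was at least 82.2-fold lower. Dlk1, an imprinted gene of the Notch ligand family, had 53 and 110 reads in RM1536 and 0 at both sites, at least 46.4-fold lower. Pknox2, a homeobox gene, had 165 and 317 reads in RM1536, 0 in bone and 3 in lung. Aspn, a small leucine-rich proteoglycan gene, had 53 and 279 reads in RM1536 and 3 at each site. Only Lyz2 met the reverse rule: this lysozyme gene of myeloid cells had 0 reads in all 4 cultures, 61 in bone and 73 in lung, at least 52.3-fold higher against 3 counts over RM1536. Other leukocyte genes above both RM1536 libraries at both sites were Cd68, Laptm5, Csf1r, Adgre1 and Itgam, the last 3 with 1 to 5 reads in a recovered library. Cd68, a lysosomal protein gene of macrophages, stood at 11.1 and 3.56 CPM in RM1536, 19.6 in bone and 20.3 in lung, with RM1 at 9.60 and 44.1. Laptm5 stood at 0.239 and 0.128 CPM in RM1536, 2.40 in bone and 0.279 in lung. Whether blood cells among the sorted cells gave reads of Lyz2 or the other leukocyte genes was not tested.

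The promoters of a pair of the genes near 0 reads and a pair of the higher genes are printed to show how far their CG content differs. The 4 genes were chosen after their values were seen. Each sequence is the 250 bases before the RefSeq gene start on GRCm38.p6, 5′ to 3′ on the gene's strand, with CG dinucleotides in capitals.
Ripk3: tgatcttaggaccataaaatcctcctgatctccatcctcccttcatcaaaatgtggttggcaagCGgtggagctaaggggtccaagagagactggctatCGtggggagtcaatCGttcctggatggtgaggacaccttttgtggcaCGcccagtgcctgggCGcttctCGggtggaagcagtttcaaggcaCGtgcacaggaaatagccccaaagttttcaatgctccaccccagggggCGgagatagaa
Dapk1: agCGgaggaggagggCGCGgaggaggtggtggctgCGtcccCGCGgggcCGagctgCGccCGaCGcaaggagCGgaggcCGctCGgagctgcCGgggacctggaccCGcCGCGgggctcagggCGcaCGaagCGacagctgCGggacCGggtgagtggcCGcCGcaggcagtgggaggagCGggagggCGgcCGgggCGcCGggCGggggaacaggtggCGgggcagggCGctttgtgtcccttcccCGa
Slco2a1: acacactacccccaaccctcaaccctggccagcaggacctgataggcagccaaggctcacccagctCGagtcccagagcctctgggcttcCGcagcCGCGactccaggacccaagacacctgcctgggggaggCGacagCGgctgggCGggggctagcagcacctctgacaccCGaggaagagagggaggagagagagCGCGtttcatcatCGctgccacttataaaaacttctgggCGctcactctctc
Prdm1: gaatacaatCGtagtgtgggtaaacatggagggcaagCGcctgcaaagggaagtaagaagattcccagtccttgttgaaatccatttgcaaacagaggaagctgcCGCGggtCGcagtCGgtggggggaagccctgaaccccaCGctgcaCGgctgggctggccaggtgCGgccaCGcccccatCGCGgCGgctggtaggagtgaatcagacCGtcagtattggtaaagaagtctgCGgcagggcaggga
Ripk3 (chr14:55788858-55789107, minus strand) has 8 CG, and Dapk1 (chr13:60601961-60602210, plus strand) has 33, more than 96.0% of the 32851 RefSeq mouse promoters. Slco2a1 (chr9:103008237-103008486, plus strand) has 12 and Prdm1 (chr10:44458749-44458998, minus strand) has 15. The median was 6 CG over all promoters and 16 over those of tested genes, so these 2 genes near 0 at both sites have promoters of unlike CG content. DNA methylation was not measured in these libraries. Motifs in the printed windows were searched on both strands of the same 250 bases. Shares over promoters were counted on longer sequences that also hold bases after the gene start, so the lengths differ. CACGTG is in the Ripk3 window and in 7.15% of all promoters, TATAAA in the Slco2a1 window and in 13.6%, and TGANTCA in the Prdm1 window and in 7.81%. No such letters were found in the Dapk1 window. RefSeq promoters were matched for 57 of the 79 higher and 20 of the 34 lower genes. TGANTCA was in 10% of the 80 promoters of those 57 genes and in 0 of the 23 promoters of those 20. The share was 5.42% for the promoters of tested genes. It was also in 0 of 25 promoters of AP-1 and immediate early genes. TATAAA was in 13.75% of the higher and 17.4% of the lower genes' promoters, against 7.19% for tested genes. CACGTG was in 6.25% and 4.35%, against 9.92%. A share of 23 promoters rests on few sequences, and no difference in share was tested.

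Cell cycle genes were lower at both sites than in RM1536, and lower in lung than in bone. Of 24 genes of S phase and DNA replication, 23 had a log2 fold change below 0 and 21 were lower in both recovered libraries than in both RM1536 libraries, against 21.0% of all tested genes. Of 24 mitosis genes, 24 were below 0 and 21 were lower without overlap. Of all tested genes 48.7% had a log2 fold change below 0 and 51.0% above. The median was -0.90 for S phase and -0.76 for mitosis, against 0.01 over all tested genes. No member was called. At an unadjusted p under 0.05, 6 and 8 members were lower and 0 higher, against 679 lower and 738 higher of all 13182 tested genes. By site the medians were -0.50 in bone and -1.37 in lung for S phase, and -0.44 and -1.06 for mitosis, while RM1536 a lay below b by 0.57 and 0.41. Without RM1536 b the medians were -0.58 and -0.52, and without lung -0.53 and -0.50. Median S phase levels were 65.4 and 98.0 CPM in RM1536, 63.1 in bone, 32.9 in lung, and 66.6 and 40.5 in RM1. Mitosis levels were 108 and 143 CPM in RM1536, 83.7 in bone, 62.0 in lung, and 100 and 63.0 in RM1. Bone thus lay between RM1 a and b on both lists, and lung lay below RM1 b.

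Mcm2, a subunit of the replicative helicase, had the smallest p of the S phase list. It stood at 199 and 312 CPM in RM1536, 142 in bone and 132 in lung, with RM1 at 179 and 162 (-0.90 ± 0.25, adjusted p = 0.361). Pcna, the sliding clamp of DNA polymerases, stood at 313 and 414 CPM in RM1536, 250.1 in bone and 179 in lung, with RM1 at 262 and 177. Ccnb2, a mitotic cyclin, stood at 106 and 124 CPM in RM1536, 47.8 in bone and 66.8 in lung (-1.0 ± 0.28, adjusted p = 0.361). Mki67, the common proliferation marker, stood at 138 and 338 CPM in RM1536, 166 in bone and 76.3 in lung, so its groups overlapped. Ccne2, a cyclin of S phase entry chosen after its values were seen, showed the gap between sites: 9.01 and 16.1 CPM in RM1536, 6.59 in bone and 1.63 in lung. RM1 a and b were also far apart, at 30.1 and 6.77 CPM. Of 11 CDK inhibitors and D cyclins, 5 were lower and 2 higher without overlap, against 21.0% and 20.7% of all tested genes. Cdkn1b stood at 103 and 80.0 CPM in RM1536 and at 48.4 and 59.4 at the sites, and Cdkn1a at 270.0 and 219 against 374 and 337. The tumour suppressor gene Cdkn2a had 0 reads in RM1536, bone and lung, and 4.88 and 4.01 CPM in RM1. Its neighbour Cdkn2b had 0 to 2 reads in those 4 libraries against 103 and 100.2 CPM in RM1.

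**Figure D3:**
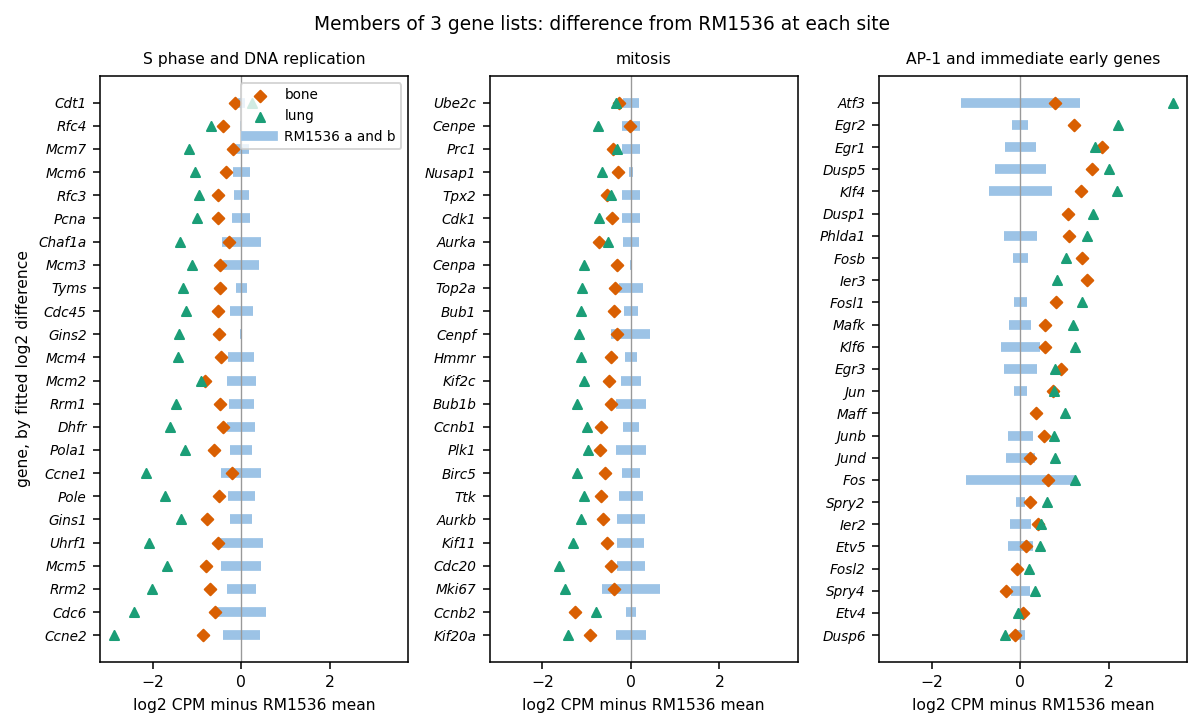
Log2 CPM minus the RM1536 mean in bone (diamonds) and lung (triangles) for each tested gene of 3 lists; the blue bar spans RM1536 a and b. Lung lies to the left of bone for most genes of the S phase and mitosis lists, and 23 of the 25 genes of the AP-1 list have a fitted log2 fold change above 0.

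AP-1 and immediate early genes, which respond to growth factors and stress, were higher at both sites than in RM1536. Median levels were 66.4 and 65.9 CPM in RM1536, 94.1 in bone, 117 in lung, and 95.1 and 139 in RM1. RM1536 was thus the lowest group, and the sites were not above RM1. Of 25 tested, 23 had a log2 fold change above 0 and 17 were higher without overlap, against 20.7% of all tested genes. The median was 0.80, with 0.62 in bone, 1.01 in lung and 0.01 between RM1536 a and b, and it was 0.51 without lung. No member was called. At an unadjusted p under 0.05, 12 were higher and 0 lower, against 738 higher and 679 lower of all 13182 tested genes. Fosb, a partner of Jun in AP-1, stood at 10.5 and 13.4 CPM in RM1536, 31.0 in bone and 24.2 in lung (1.20 ± 0.24, adjusted p = 0.294), near its level in RM1 at 25.2 and 27.1. Members below were chosen after their values were seen. The zinc finger gene Egr1 stood at 82.6 and 134 CPM in RM1536, 379 in bone and 338 in lung, above RM1 at 77.8 and 231. Jun stood at 195 and 236 CPM in RM1536, 355 in bone and 366 in lung. Dusp5, a phosphatase that acts on ERK, stood at 43.2 and 19.7 CPM against 89.2 and 117, below RM1 at 137 and 196. Fos itself overlapped at 1.36 and 7.50 CPM against 4.93 and 7.49.

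Interferon-stimulated genes were the list with the lowest median, but its direction rested on RM1536 a. Of 40 tested, 38 had a log2 fold change below 0, with a median of -1.29. Only 5 were lower without overlap, a smaller share than the 21.0% of all tested genes. RM1536 a had a median level of 24.0 CPM and RM1536 b of 3.91, against 5.57 in bone and 8.96 in lung, with RM1 far above at 111 and 153. The sites thus lay near RM1536 b and below RM1536 a, and the duplicates were 2.67 apart on the log2 scale. Without RM1536 a the median was 0.41, the opposite direction. Stat2, a transcription factor of the interferon response, was below both duplicates at 10 CPM in bone and 19.5 in lung against 68.0 and 31.7. Sp100 had 0 reads in bone and 1 in lung against 19 and 8 in RM1536 (ratio 0.0434, counting interval 0.00106 to 0.263; adjusted p = 0.365). Rsad2, an antiviral enzyme gene, had 4.55 and 0.256 CPM in RM1536, 0 in bone and 2.11 in lung, with RM1 at 266 and 495. A pair of GAAA separated by any 2 bases, as in interferon response elements, was in 15 of 35 promoters of the list (42.9%) against 3.44% of all promoters.

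Antigen presentation genes had members on both sides. Of 16 tested genes of the MHC class I pathway, 4 were lower and 1 was higher without overlap, where all tested genes gave 21.0% and 20.7%. The median was -0.35, and 0.05 without RM1536 a. Psmb10, an immunoproteasome subunit gene, stood at 29.5 and 22.9 CPM in RM1536 and 11.7 in both recovered libraries, against 48.6 and 46.8 in RM1 (-1.16 ± 0.21, adjusted p = 0.271). Erap1, which trims peptides for class I molecules, stood at 40.0 and 33.5 CPM in RM1536, 16.6 for bone and 20.6 for lung. The class I gene H2-K1 stood at 177 and 153 CPM in RM1536, 199 in bone and 193 in lung. Of 14 immune checkpoint and NK ligand genes 11 were above 0, with a median of 0.47. That median was 0.0076 in bone and 0.92 in lung, and 0.035 without lung, so it was not shared by the sites. RM1536 a lay above b by 0.59. Of the 14, 4 were higher and 1 was lower without overlap, against 20.7% and 21.0% of all tested genes. Pvrl2, a ligand of NK cell receptors, stood at 8.18 and 5.77 CPM in RM1536 against 15.1 and 17.1.

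Metabolic lists differed between sites. Of 25 genes of cholesterol and fatty acid synthesis, 24 were below 0 and 6 were lower without overlap, a share near the 21.0% of all tested genes. Their median was -0.72, with -0.27 in bone and -1.26 in lung, and it was -0.15 without RM1536 b. Sc5d, a late enzyme of cholesterol synthesis, stood at 89.5 and 174 CPM in RM1536, 62.6 in bone and 52.0 in lung. Of 24 lysosome genes, 20 were above 0 and 12 were higher without overlap (20.7% of all tested genes were). The median was 0.52, and 0.32 without lung or 0.80 without RM1536 a, while RM1536 a lay above b by 0.56. Ctsl, a lysosomal protease gene chosen after its values were seen, stood at 2981 and 1563 CPM in RM1536, 4434 in bone and 7214 in lung. Ctss, first by p, had 1 and 0 reads in RM1536 and 14 and 16 at the sites. RM1 a and b, with 0 reads of Lyz2, had 6 and 7 reads of Ctss. Ctss codes for a protease also found in antigen-presenting cells, and whether such cells gave its reads was not tested.

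Most mitochondrially encoded genes were higher at both sites. Of 12 tested, 11 were above 0, with 9 higher and 1 lower without overlap, against 20.7% and 21.0% of all tested genes. The median was 0.63, with 0.54 in bone and 0.69 in lung. mt-Cytb, a subunit of complex III, stood at 2324 and 2175 CPM in RM1536, 4074 in bone and 5081 in lung, with RM1 lowest at 1395 and 887. Of 21 nuclear-encoded genes of the respiratory chain 1 was higher and 8 were lower without overlap, against the same shares, with a median of -0.05. Atp5a1, of the ATP synthase, stood at 1069.9 and 1283 CPM in RM1536, 788 in bone and 739 in lung. Of 22 cytosolic ribosomal protein genes 19 were above 0 with a median of 0.25, which was 0.10 without RM1536 b, 0.14 without lung and 0.43 without RM1536 a. Of these genes 8 were higher and 0 lower without overlap. Rpl3 stood at 2092 and 1602 CPM in RM1536, 2086 in bone and 2843 in lung. Of 22 genes of ribosome biogenesis and MYC targets 19 were below 0, with a median of -0.22, which was 0.04 without RM1536 b. Without overlap 4 were lower and 1 was higher, against 21.0% and 20.7% of all tested genes.

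**Figure D4:**
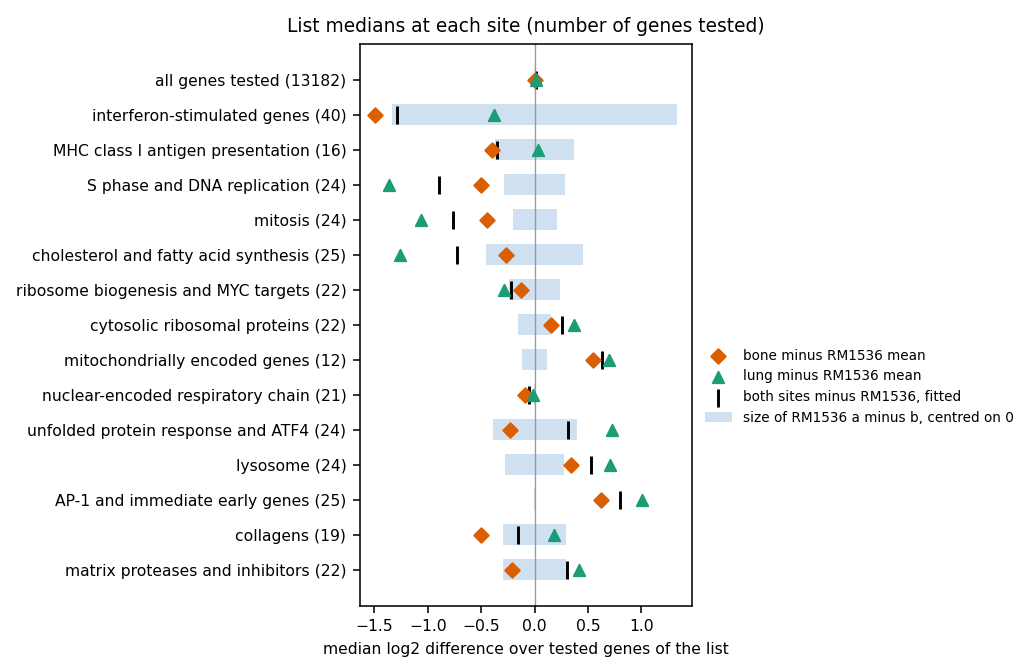
Median log2 difference from RM1536 over the tested genes of each list, in bone (diamonds), in lung (triangles) and for both sites in the fit (black ticks); the blue bar has the length of the RM1536 a minus b median and is centred on 0. The bar is longest for interferon-stimulated genes (2.67), and bone and lung lie beyond the bar on the same side for S phase, mitosis, mitochondrially encoded, lysosome and AP-1 genes, and by little for cytosolic ribosomal protein and nuclear-encoded respiratory chain genes.

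Stress and growth lists held single genes with shared differences. The unfolded protein response and ATF4 list had 18 of 24 genes above 0 and a median of 0.31, but -0.23 in bone and 0.73 in lung. Only 2 of its genes were higher and 2 lower without overlap, against 20.7% and 21.0% of all tested genes. The direction of the list median turned without lung (-0.24) and without RM1536 b (-0.11). The median was 0.63 without bone and 0.83 without RM1536 a. Pdia4, a chaperone of the endoplasmic reticulum, stood at 483 and 368 CPM in RM1536 and 267 and 258 at the sites. Ddit4, of the glycolysis and hypoxia list, stood at 266 and 174 CPM in RM1536, 88.3 for bone and 108 for lung, and the list's median was 0.15. By site that median was 0.21 in bone and -0.10 in lung. Nqo1, an antioxidant enzyme gene of the NRF2 list (median 0.11), stood at 21.5 and 29.2 CPM in RM1536, 52.1 for bone and 49.5 for lung. The NRF2 list median was -0.10 in bone and 0.18 in lung. The p53 target list had a median of 0.03. Its first gene, Fas, was under 1 CPM in every library.

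Secreted growth factors and cytokines lay on both sides of RM1536. Lif, a cytokine of the interleukin 6 family, stood at 39.7 and 25.3 CPM in RM1536, 14.3 in bone and 13.6 in lung, with RM1 at 68.4 and 69.9 (-1.22 ± 0.26, adjusted p = 0.296). Kitl, the ligand of the receptor Kit, stood at 126 and 97.3 CPM in RM1536, 214 in bone and 257 in lung (1.08 ± 0.22, adjusted p = 0.294). Wnt11 had 1 and 2 reads in RM1536, 32 in bone and 18 in lung, a ratio of 19.5 (6.31 to 97.9; adjusted p = 0.294). Tcf7, a transcription factor of the Wnt pathway chosen after its values were seen, stood at 16.9 and 14.0 CPM against 41.6 and 37.2. Id1, a target of BMP signalling, stood at 13.2 and 15.1 CPM in RM1536 and at 4.28 and 6.77 at the sites. The medians of the whole lists were near 0: 0.22 over 31 growth factor and receptor genes, 0.03 over 17 Wnt genes, -0.15 over 27 TGF-beta and BMP genes and -0.24 over 19 chemokine and NF-kappaB genes. The growth factor median was -0.20 in bone and 0.46 in lung.

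Matrix and adhesion genes showed no common direction. Of 19 collagen genes 9 were above 0 and 10 below, with a median of -0.15, -0.50 in bone and 0.18 in lung. Col12a1 stood at 10.1 and 143 CPM in RM1536, 1.62 in bone and 1.39 in lung, so the duplicates lay further apart than RM1536 a lay from the sites. Of 22 matrix protease and inhibitor genes 4 were higher and 4 lower without overlap, near the 20.7% and 21.0% of all tested genes. Mmp10, a stromelysin, stood at 30.1 and 5.64 CPM in RM1536, 118 in bone and 178 in lung (3.05 ± 0.78, adjusted p = 0.327). Ecm1, a matrix glycoprotein, stood at 153 and 102 CPM in RM1536, 258 for bone and 419 for lung, and the crosslinking enzyme gene Tgm2 at 41.8 and 23.3 against 77.0 and 132. Lamb3, a laminin subunit, had 9 and 11 reads in RM1536 and 0 at both sites, at least 5.69-fold lower. Jup, which codes for plakoglobin of cell junctions, stood at 173 and 228 CPM in RM1536, 116 for bone and 86.1 for lung, and the keratin and junction list had a median of 0.02. That list median was 0.42 in bone and -0.20 in lung.

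The remaining medians of this kind were -0.04 over 22 matrix glycoprotein and proteoglycan genes, 0.03 over 12 crosslinking genes, 0.14 over 21 integrin and laminin genes, 0.26 over 20 mesenchymal transition genes and -0.05 over 13 contractile genes. For some of these lists the sites lay on opposite sides of RM1536. Bone and lung medians were -0.73 and 0.14 for matrix glycoproteins, -0.25 and 0.30 for crosslinking, and -0.39 and 0.28 for contractile genes. For mesenchymal transition genes they were -0.02 and 0.27, and for integrins and laminins 0.11 and 0.20. Tgfbi, a secreted matrix protein of the mesenchymal list, stood at 134 and 50 CPM in RM1536, 198 in bone and 214 in lung. Myl9, a myosin light chain, had 9 and 107 reads in RM1536 and 3 at each site. Bone metastasis genes had a median of 0.33 over 21 genes, and 0.15 and 0.16 in bone and lung. Mmp1a, first of that list by p, stood at 0.598 and 0.449 CPM in RM1536, 1.83 in bone and 1.47 in lung. Dormancy-associated genes had a median of -0.06 over 19 genes.

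Padi4 and Trp53i11 are a contrast in how the sites relate. Padi4, a peptidylarginine deiminase that citrullinates histones, had 3.31 and 2.53 CPM in RM1536, 111 in bone and 14.1 in lung, with RM1 at 78.5 and 101. Both sites lay above RM1536, and bone lay far above lung (4.42 ± 0.95, adjusted p = 0.30). Its family member Padi2 stood at 14.6 and 5.13 CPM in RM1536, 62.9 for bone and 34.1 for lung, and these were the 2 tested members of 5 listed. Trp53i11, a gene named as induced by p53, was at 0 in bone but at 40.7 CPM in lung, with RM1536 at 34.4 and 25.8, so the sites lay on opposite sides of RM1536 (-0.57 ± 1.67, adjusted p = 0.913). Crabp1, whose protein binds retinoic acid, stood at 1104 and 1209.7 CPM in RM1536, 1203 in bone and 1204 in lung, against 7.63 and 14.8 in RM1. Mtap, an enzyme gene of methionine salvage next to Cdkn2a, stood at 572 and 564 CPM in RM1536, 568 in bone and 635 in lung, against 135 and 189 in RM1. For Crabp1 and Mtap the recovered cells thus carried the RM1536 level, with log2 fold changes of 0.06 ± 0.31 and 0.08 ± 0.22.

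Imprinted genes had a median of -0.10 over 13 tested, with 5 lower and 2 higher without overlap against 21.0% and 20.7% of all tested genes. By site the median was 0.30 in bone and -0.08 in lung. Snrpn had 10 and 17 reads in RM1536 and 0 at both sites, at least 7.68-fold lower (adjusted p = 0.294), and Dlk1 is given above. Of 8 tested prostate and androgen-responsive genes 0 were higher and 1 was lower without overlap, both below those shares, with a median of 0.04. Fkbp5, an androgen-responsive gene, stood at 116 and 140.2 CPM in RM1536, 96.9 for bone and 89.4 for lung. The 4 Y-linked genes had a median of 0.22, and Eif2s3y stood at 50.4 and 44.5 CPM in RM1536 and at 76.7 and 73.0 at the sites.

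Markers of other cell types were tested in small numbers, and their counts without overlap stand against 20.7% higher and 21.0% lower of all tested genes. Of 6 tested endothelial markers 3 were higher without overlap, with a median of 0.58. Vwf stood at 0.718 and 0.128 CPM in RM1536, 1.22 in bone and 4.94 in lung, while Emcn was at 0 in all libraries and Cdh5 at 0 in bone. The shorter endothelial marker list summed to 4.55 and 2.05 CPM in RM1536, 9.21 in bone and 9.32 in lung. Of 11 stromal markers 1 was higher and 2 were lower, with a median of -0.08, and Dpt stood at 15.2 and 50.5 CPM in RM1536, 5.42 in bone and 4.54 in lung. Of 5 osteoblast and osteoclast markers 3 were higher and 1 was lower, with Phex at 3.75 and 3.21 CPM in RM1536, 8.73 for bone and 9.76 for lung, and a median of 0.44. Of 6 tested leukocyte markers 3 were higher (Lyz2, Cd68 and Laptm5) and 1, Cd14, was lower, with a median of 1.95. That median was 0.56 with the stricter low-count filter and ran from 1.39 to 2.91 with each library left out in turn. Of 3 lung epithelium markers 2 were higher, with a median of 1.15, and of 2 erythroid and megakaryocyte markers 0 were, with a median of 0.36. Hopx stood at 3.03 and 1.64 CPM in RM1536 and at 8.08 and 3.86 at the sites, and Itga2b at 1.79 and 1.76 against 2.36 and 1.79. The part of other cells in these values was not tested.

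Levels were also compared by chromosome, on 12767 tested genes with a GENCODE M21 position. On chromosome 6, 38.3% of 632 genes were lower at both sites than in both RM1536 libraries, and on chromosome 13, 36.4% of 489 were, against 21.0% of all tested genes. The medians were -0.28 in bone and -0.16 in lung on chromosome 6, and -0.20 and -0.18 on chromosome 13. On chromosome 13 RM1536 already lay below RM1, with a median of -0.37. Chromosomes 8 and 14 were lower at both sites by less, at -0.11 and -0.14 in bone and -0.07 and -0.08 in lung. On chromosome 3, 34% of 659 genes were higher at both sites, against 20.7% of all, with a median of 0.37 in bone but 0.06 in lung. Chromosomes 9 and 18 were lower in bone, at -0.31 and -0.33, and not in lung, at 0.03 and 0.04. Chromosome 15 was higher in lung, at 0.27, and at -0.04 in bone. The medians between RM1536 a and b were between -0.05 and 0.10 on the autosomes and chromosome X.

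**Figure D5:**
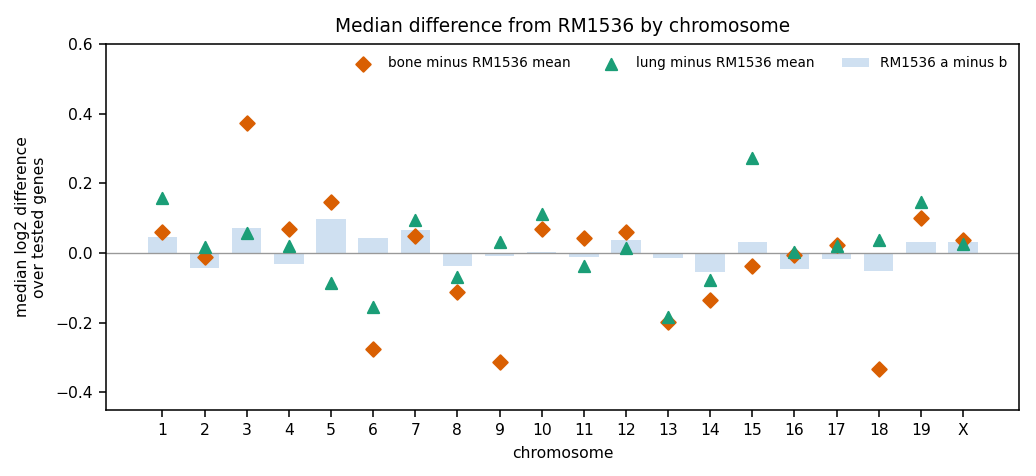
Median log2 difference from the RM1536 mean over the tested genes of each chromosome, in bone (diamonds) and lung (triangles); bars give the median of RM1536 a minus b. Bone and lung lie below 0 together on chromosomes 6 and 13, and by less on chromosomes 8 and 14. Only bone lies at -0.31 on chromosome 9 and -0.33 on chromosome 18.

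In stretches of 10 Mb with at least 20 tested genes, 1 of 219 was shifted by at least 0.4 on the log2 scale at both sites, with stretch length and limits set after the values were seen. It was chromosome 4 from 10 to 20 Mb (GRCm38), with 30 genes and medians of -0.73 in bone and -0.66 in lung. Of its genes, 20 were lower at both sites than in both RM1536 libraries and 2 were higher. RM1536 already lay below RM1 there, with a median of -1.0, so RM1, RM1536 and the recovered cells stood in descending order. Cpne3, a copine, had 45.8 and 51.3 CPM in RM1536, 24.6 in bone and 19.9 in lung, with RM1 at 113 and 73.0. Nbn, a DNA repair gene, had 8.85 and 13.4 CPM in RM1536, 4.63 in bone and 5.46 in lung, with RM1 at 23.9 and 17.6. Plekhf2, an endosomal protein gene, had 8.49 and 8.85 CPM in RM1536 and 4.06 and 4.18 at the sites, with RM1 at 22.5 and 24.7. These 3 genes were chosen after their values were seen. Other stretches came near the limit of 0.4 without reaching it at both sites. Chromosome 3 from 50 to 60 Mb had medians of 0.45 in bone and 0.39 in lung. Chromosome 6 from 120 to 130 Mb had -0.41 and -0.36, and chromosome 13 from 60 to 70 Mb had -0.34 and -0.74. DNA copy number was not measured, and its part in these shifts was not tested.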

How the data were processed

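RNA was measured by sequencing in 6 libraries. The deposited table holds raw counts of reads per gene made by the authors. The submitters' processing notes name TopHat2 2.1.10, HTSeq, edgeR and the mouse genome GRCm38. Their roles, the strand setting and the annotation used are not given in the sources, so reads of overlapping and antisense genes cannot be told apart. Columns were matched to samples by name. A row without a name, holding 0.00626% to 0.00830% of each library's counts, was dropped. Among the 23791 named rows, 1710 had no read anywhere and 27 carried dates in place of symbols.

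edgeR 4.0.16 in R 4.3.3 was used for TMM scaling, filterByExpr, a quasi-likelihood fit of all 6 libraries in 3 groups (RM1, RM1536, bone with lung), and Benjamini-Hochberg adjustment over 13182 genes with a call at 0.05. The common dispersion was 0.0915 (biological coefficient of variation 0.303). Per degree of freedom, chi-square between duplicates was 89.9 (RM1) and 91.1 (RM1536), far beyond counting noise, and 117 between bone and lung. P values measure only the spread between these libraries, which may be technical in part. SE is the size of a log2 fold change over the square root of its F statistic. The test was tried first on simulated data with a smaller spread than these libraries have. That trial does not show how many real differences the test would miss here.

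CPM are scaled by TMM factors (0.933 to 1.03). At a depth of 22763835 to 30303566 counts, a gene at 0 may hold up to 3 counts. Intervals cover counting error only and are exact 95% intervals. Limits given as at least a fold are not intervals. They put 3 counts in place of 0 and leave out the counting error of the other group. Site values are log2 CPM with a prior count of 0.5. Overlap between groups was judged on CPM without a prior count, with ties counted as overlap. Alternatives were DESeq2 1.42.0, RLE scaling, limma-voom (limma 3.58.1), other filters, other libraries in the fit, and each library left out.

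The comparison, the 41 gene lists (860 entries, 29 not in the table) and the tests were chosen with earlier results of these data known. Named genes are the 12 first by unadjusted p in each direction among genes with ordinary symbols that were 2-fold apart in all 4 pairs, the first member of each list by p, and Padi4, Trp53i11, Rsad2, Mki67, Pcna, Crabp1, Ptgis, Mtap, Cdkn2a and Cdkn2b. Others were chosen after their values were seen. One of the 12 lower genes is not reported here. Gene positions come from GENCODE M21, and promoters from RefSeq (GRCm38.p6), which matched 54 of 72 named genes.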

Additional observations from a re-analysis of the deposited data

Results flagged for a closer look

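Trp53i11 was singled out because the sites lay outside the RM1536 range in opposite directions. It had 0 reads in bone and 40.7 CPM in lung, against 34.4 and 25.8 CPM in RM1536 and 2.98 and 2.94 in RM1. Bone minus lung was -10.86 on the log2 scale with a prior count of 0.5. With 1 library a site, the difference was not tested.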

How the results depend on the processing

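Of 13 alternatives, 10 gave 0 called genes; DESeq2 called 344, the fit without a low-count filter 865 (477 higher, 388 lower), and the fit without lung 2, Padi4 and Trp53i11. Leaving out each library in turn gave 0 to 2. Where 1 recovered or RM1536 library is left, it is assumed to vary like the other groups. The 2-fold counts in all pairs, 79 and 34, were 241 and 143 at 1.5-fold, 14 and 6 at 4-fold, and 137 and 95 at a mean CPM of at least 1; with a library left out they ran from 119 to 356 and from 78 to 311. No paired analysis was possible because the bone and lung libraries carry no replicate letter shared with RM1536 a and b.

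Of 530 list medians under alternatives, 45 moved by more than the spread between libraries. The low-count filter was run again in each fit, so the tested genes of a list can differ between fits. The median of the main fit can thus lie outside the range given below. It was 3.36 for peptidylarginine deiminases, 0.44 for osteoblast and osteoclast markers and 0.22 for growth factors. With each library left out in turn the median ran from -2.10 to 0.41 for interferon-stimulated genes, -1.11 to -0.50 for mitosis, -0.45 to 0.038 for ribosome biogenesis, -1.37 to -0.15 for cholesterol synthesis, -0.19 to 0.17 for glycolysis and hypoxia, -0.18 to 0.18 for p53 targets and -0.11 to 0.16 for NRF2 genes. It ran from -0.93 to 0.14 for matrix glycoproteins, -0.27 to 0.10 for crosslinking, -0.24 to 0.39 for proteases, -0.32 to 0.69 for keratins and junctions, -0.47 to 0.19 for contractile genes, -0.31 to 0.30 for chemokines, 0.51 to 0.94 for AP-1 genes, -0.37 to 0.17 for growth factors and 0.013 to 0.38 for Wnt genes. It ran from 0.035 to 0.83 for checkpoint ligands, 1.44 to 2.63 for peptidylarginine deiminases, -0.16 to 0.57 for imprinted genes, -1.11 to 0.41 for erythroid, -0.61 to 1.17 for lung epithelium, -0.41 to 0.58 for endothelium, 1.07 to 1.46 for osteoblast and osteoclast markers, and 0.13 to 0.37 for Y-linked genes. It ran from -0.24 to 0.83 for the unfolded protein response, -0.69 to 0.12 for collagens, -0.022 to 0.26 for mesenchymal transition, -0.13 to 0.059 for dormancy and -0.064 to 0.24 for prostate genes. Without a low-count filter the median was 0.039 for chemokines, 1.54 for peptidylarginine deiminases and -0.17 for endothelium. The stricter filter gave 0.68 for checkpoint ligands and 1.41 for osteoblast and osteoclast markers, and no value for the erythroid, lung epithelium and endothelium lists. With bone and lung as separate groups the contractile median was -0.14. The causes were not tested.

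Among named genes the log2 fold change had the opposite sign for Itga2b (-0.014) and Trp53i11 (0.41) without bone, and for Rsad2 (2.05) and Crabp1 (-0.0052) without RM1536 a. With each library left out in turn Trp53i11 ran from -12.69 to 0.41, Rsad2 from -9.01 to 2.05 and Crabp1 from -0.0052 to 0.12. In 96 of 893 values a named gene passed the threshold that it missed otherwise, mostly with DESeq2 or no filter. Low depth limits genes under 1 CPM.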
